A study of Homo sapiens with 6 samples.

Results

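The genes described here carry the Gene Ontology annotation for RNA binding and lie outside the set of ribosomal and ribosome-assembly genes. Of 1099 genes in the authors' deposited table, 219 carried that annotation. Names starting with RPL, RPS, MRP, EIF, PSM, CCT, TRIM or OAS took out 66 of them, annotation to rRNA processing, ribosome biogenesis or assembly, or antiviral defence took out 38 more, and 6 further genes were left out by name. The other 109 are the members. By annotation 106 were protein-coding, and 3 were not: the long non-coding RNAs LINC00882 and CASC19, and the ribosomal pseudogene ENSG00000237550. FAU, whose product is cut to give a ribosomal protein, and this pseudogene of ribosomal protein L9 passed the rule, and 26 members were annotated to the nucleolus, so the set is not wholly apart from the ribosome.

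RNA-binding proteins accompany a transcript from its synthesis to its decay. In the nucleus, Sm proteins and splicing factors remove introns, while SR proteins and hnRNPs choose splice sites. In the cytoplasm, proteins bound to the poly(A) tail and to the untranslated region behind the coding sequence set how long an mRNA lasts and how much of it is translated. Many enzymes and cytoskeletal proteins also bear the annotation because they were recovered in surveys of proteins bound to RNA.

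Poly(A) RNA was sequenced from wild-type cells labelled A549, a lung adenocarcinoma line, after 24 h with vehicle (DMSO, 3 libraries) or with F/B extract (3 libraries), an extract that the series title describes as made from Flos Sophorae Immaturus and broccoli seed. All 6 libraries shared the same line, serum-containing RPMI-1640 medium and time. No dose of the extract is given in the sources used here. Nothing in the labels says whether replicates were separate cultures, so the spread behind each p-value is that of these libraries and may be technical.

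The library names carry AGS, the name of a gastric line, where the labels give A549. MTAP, a gene deleted in A549, had between 48.9 and 60.5 TPM (transcript abundance scaled to a fixed total per library) in the 6 libraries. Of 14 gastrointestinal markers 4 were in the table, and of 6 lung markers 0 were. The table holds only the 9.74% of 11289 tested genes with the smallest deposited p-values, so a gene outside it cannot be called absent. The listed genes summed to between 3084337 and 4640114 estimated counts per library, which is part of each library and not its depth.

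Most members were lower with extract, by small amounts. Of 109 members 87 were lower (79.8%) and 22 higher, with a median log2 fold change (extract over vehicle) of -0.24. Over all listed genes 712 of 1099 were lower (64.8%). By edgeR's quasi-likelihood test with an adjusted p under 0.05, 62 fell, or 56.9% of members, against 52.8% of all listed genes, and 18 rose, or 16.5%, against 28.9% of all listed genes. The share that fell by this test was thus near that of the whole table, where the median log2 fold change was -0.22. By DESeq2 on the same scale 78.0% of members were called lower, beside 62.7% of all listed genes. In that fit 19.3% were called higher, beside 33.8%. These differences were not tested. The median change of a member in either direction was 1.21-fold, and 4 members were more than 1.5-fold lower and 1 more than 1.5-fold higher. By normalised counts, the vehicle and extract libraries did not overlap in 86 members that were lower and 21 that were higher. Over all listed genes 63.8% had no overlap and were lower and 34.6% had no overlap and were higher. By the authors' deposited adjusted p under 0.05, 22 members were higher and 81 lower, beside 33.4% and 62.6% of all listed genes. The authors had selected every listed gene on this same comparison, so separation of the groups was to be found in nearly every row. In these bulk samples a lower share of some cells and less RNA per cell cannot be told apart.

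**Figure D1:**
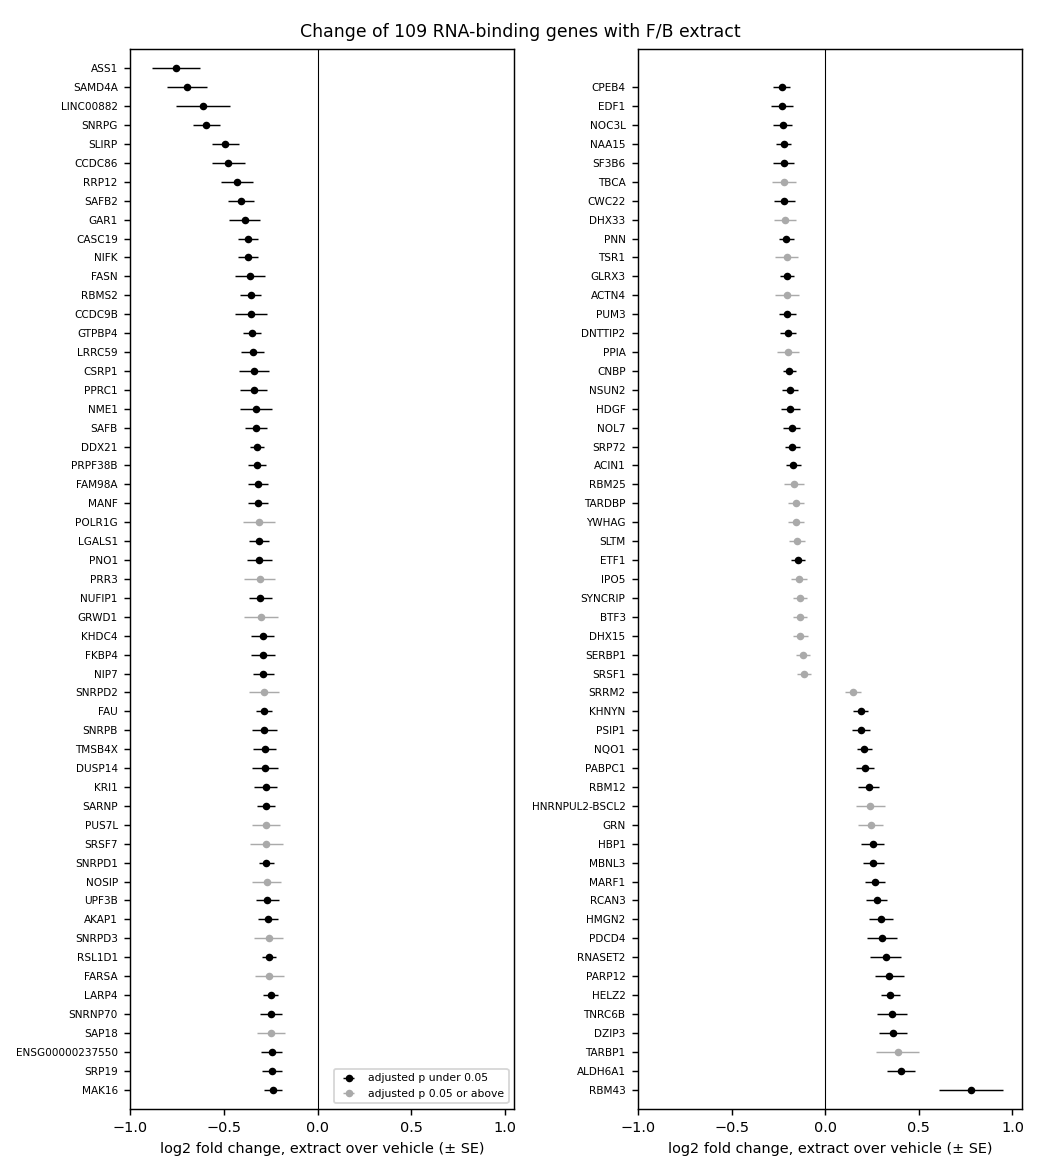
Log2 fold change of each of the 109 members (horizontal axis, extract over vehicle, bars ± SE), ordered from the lowest to the highest. Black points passed the edgeR test and grey points did not; ASS1 at -0.76 and RBM43 at 0.78 stand at the ends, and 87 points lie left of 0.

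These counts rested on the scale and on single libraries, as did those over the whole table. With scales computed over the listed genes, 6 (TMM), 4 (DESeq2 size factors) and 11 (plain sums) members were called lower, and 24 on the scale of the TPM values, while 22, 22, 22 and 21 were called higher. The lower calls were 5.50%, 3.67%, 10.1% and 22.0% of members in this order, beside 7.92%, 7.83%, 11.5% and 19.5% of all listed genes. The members' share was thus below that of the table on the 3 scales over the listed genes and above it on the TPM scale, and these differences were not tested. Only 2 members were called higher and 12 lower when vehicle replicate 2 was left out. The same counts were 2 and 24 with vehicle replicate 3 left out, and 2 and 20 with extract replicate 2 left out. The lower calls were 11.0%, 22.0% and 18.3% of members in these 3 cases, beside 11.6%, 20.4% and 16.4% of all listed genes, so the loss was of like size over the whole table. Vehicle replicate 2 had the highest sum of listed counts, 4640114, and its part in these losses was not tested. Counted without any test, 79 members were lower with TMM, 75 with the DESeq2 size factors, 83 with sums and 87 on the TPM scale.

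**Figure D2:**
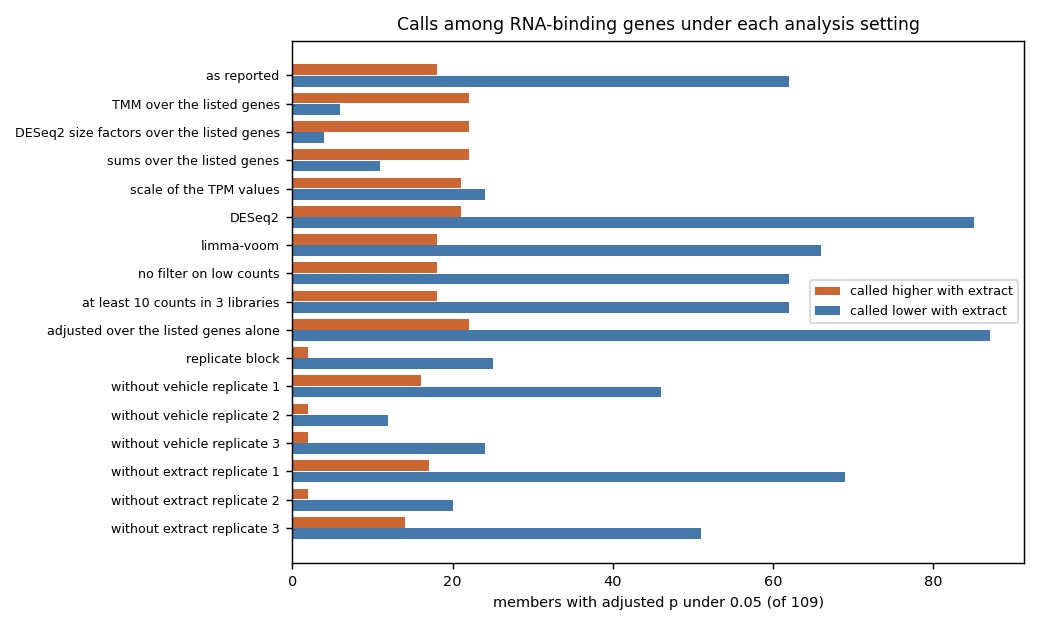
Number of members called higher (orange) and lower (blue) with extract under the reported analysis and 16 other settings (horizontal axis, count of the 109 members). The lower calls run from 4 to 87 and the higher calls from 2 to 22.

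SAMD4A, SNRPG and SLIRP fell in the reported analysis and in each of the 16 other settings. Both filters on low counts repeat the reported fit, and adjustment over the listed genes alone can only add calls. These settings could lose no call in any count over the 16 and add no support. SAMD4A encodes Smaug1, which represses the translation of mRNAs it binds. Its normalised counts were 459.7, 452 and 528 in vehicle replicates 1 to 3 and 321, 315 and 251 in extract replicates 1 to 3. The lowest vehicle library stood above the highest extract library, and the log2 fold change was -0.70 (SE 0.11, edgeR adjusted p = 0.00651). SLIRP (ENSG00000119705, GRCh38 chromosome 14, 77708071 to 77761104) encodes a partner of LRPPRC that stabilises mitochondrial mRNAs. It was at 613, 623 and 579.6 in vehicle and 411, 417 and 462 in extract libraries. All extract libraries of SLIRP lay below all vehicle libraries, with log2 fold change -0.49 and SE 0.07 (edgeR adjusted p = 0.0052).

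The lowest log2 fold change among members belonged to ASS1, argininosuccinate synthase of arginine synthesis, an enzyme rather than a classical RNA-binding protein. It was at 120.2, 129.7 and 128 normalised counts in vehicle and 79.4, 74.0 and 70.6 in extract libraries, with log2 fold change -0.76 and SE 0.13 (edgeR adjusted p = 0.00889). Its groups were well apart, but the call was lost without vehicle replicate 2. CASC19 went from 2885 ± 143 to 2232 ± 101 normalised counts (mean ± SD of 3 libraries). LINC00882 was at -0.61 on the log2 scale with a wider SE of 0.15 and an edgeR adjusted p of 0.0319. Both are annotated as non-coding, while the deposited table gives them the RNA-binding term.

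**Figure D3:**
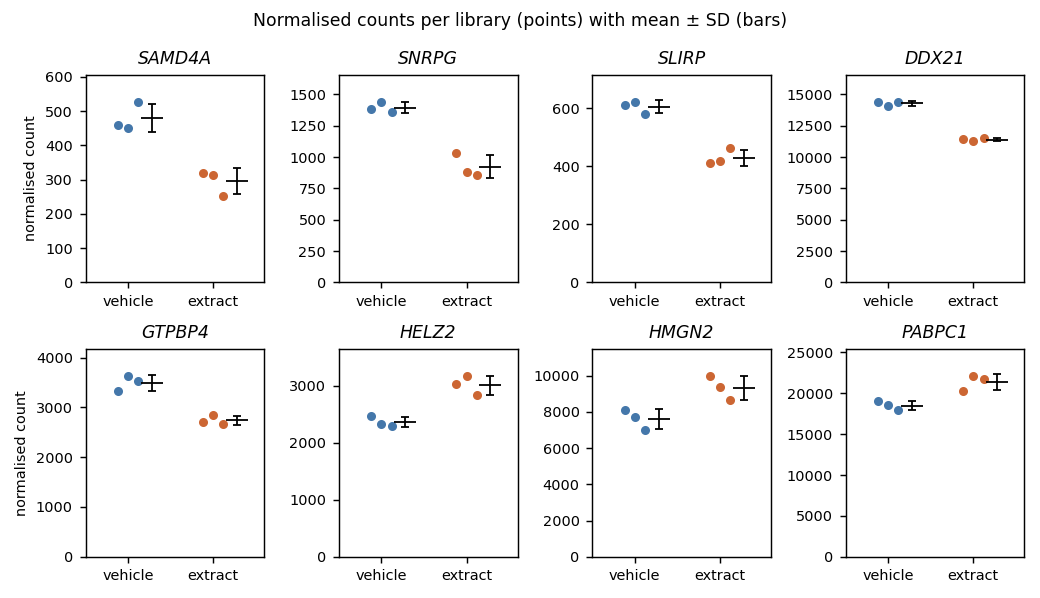
Normalised counts (vertical axes, from 0) of 8 members in each library (points; blue vehicle, orange extract) with the mean ± SD of each group beside them. In SAMD4A, SNRPG, SLIRP, DDX21 and GTPBP4 each extract library lies below each vehicle library, and in HELZ2, HMGN2 and PABPC1 above.

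Among the core parts of the spliceosome, the machine that removes introns, 9 members were listed and 9 were lower, of which 7 fell (77.8%, beside 52.8% of all listed genes, a difference that was not tested). A further 2 listed genes of this list of 96 symbols, LUC7L and SNU13, are not members and were also lower. SNRPG (ENSG00000143977, chromosome 2, 70281362 to 70293771) is a subunit of the Sm ring, the ring of proteins that holds the spliceosomal small nuclear RNAs. SNRPG was at 1385, 1443 and 1356 normalised counts in vehicle and 1031, 884 and 859 in extract libraries. Extract replicate 1 was the nearest to the vehicle libraries, and the log2 fold change was -0.59 (SE 0.07, edgeR adjusted p = 0.00263).

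Of the 7 genes of the Sm ring 5 were listed, all 5 lower and 3 past the test (60.0%, beside 52.8% of all listed genes). SNRPD1 was at 2779, 2758 and 2752 in vehicle and 2336, 2283 and 2241 in extract libraries, with log2 fold change -0.27 (SE 0.04). By these counts the vehicle libraries of SNRPD1 differed from each other by far less than from the extract libraries. By TPM the groups overlapped, at 93.0, 117.6 and 100.5 in vehicle and 68.9, 79.3 and 94.4 in extract libraries. SNRPB was at 6840.2, 7079 and 6853 in vehicle and 6273, 5693 and 5089 in extract libraries, with log2 fold change -0.28 (SE 0.07). SNRPD2 at -0.29 and SNRPD3 at -0.26 did not pass (edgeR adjusted p = 0.0553 and 0.0857). Outside the ring, PRPF38B, a factor of spliceosome activation, fell by 0.32 on the log2 scale, from 2518 ± 117 to 2011 ± 34.1 normalised counts (± SD of 3 libraries). SNRNP70, the U1 protein that marks the start of an intron, was at -0.25, SF3B6 at -0.22 and CWC22, which places the exon junction complex, at -0.22, each past the test. The 7 calls fell to 4 on the scale of the TPM values and to 1 on each of the scales over the listed genes. They fell to 3 without vehicle replicate 1, 2 or 3 or extract replicate 2.

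Promoter sequences were available from RefSeq (GRCh38.p14) for 93 of the 109 members. They are shown because most members were lower with extract and many of these share a short sequence before their start. The letters CCGGAAG, the core bound by ETS-type factors, were searched on both strands in the 250 bases before the start, beside 5 other motifs. They were found in 25 of 73 promoters of lower members (34.2%), in 3 of 20 of higher members (15.0%), in 112 of 779 of the other listed genes (14.4%) and in 2407 of all 27305 promoters (8.82%). In 21 of the 25 the match lay within 100 bases of the start. The motif is frequent in promoters of housekeeping genes, a match says nothing about binding, and no test was made. Starts are those of RefSeq, and for SNRPG, GTPBP4 and PARP12 the bases shown lie wholly inside the gene as placed by GENCODE. Those of SNRPB, SLIRP and DDX21 lie partly inside it, and those of GAR1 lie outside. The 120 bases before the start of 6 lower members are given below with this motif in capitals (CTTCCGG is its other strand).
SNRPG promoter (chr2:70293459-70293578, minus strand): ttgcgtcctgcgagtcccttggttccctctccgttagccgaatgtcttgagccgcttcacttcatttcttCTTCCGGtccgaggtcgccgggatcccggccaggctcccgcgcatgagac
SNRPB promoter (chr20:2470790-2470909, minus strand): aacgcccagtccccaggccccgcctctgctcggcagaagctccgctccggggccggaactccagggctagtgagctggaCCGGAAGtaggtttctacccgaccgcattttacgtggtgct
SLIRP promoter (chr14:77707983-77708102, plus strand): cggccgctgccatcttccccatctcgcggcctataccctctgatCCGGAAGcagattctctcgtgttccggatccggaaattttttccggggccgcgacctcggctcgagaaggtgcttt
DDX21 promoter (chr10:68956050-68956169, plus strand): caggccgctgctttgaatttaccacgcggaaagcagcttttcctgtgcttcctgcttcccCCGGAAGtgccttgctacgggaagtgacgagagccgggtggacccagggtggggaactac
GTPBP4 promoter (chr10:988314-988433, plus strand): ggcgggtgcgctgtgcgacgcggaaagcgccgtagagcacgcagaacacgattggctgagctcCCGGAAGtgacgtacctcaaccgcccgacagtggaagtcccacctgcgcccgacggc
GAR1 promoter (chr4:109815390-109815509, plus strand): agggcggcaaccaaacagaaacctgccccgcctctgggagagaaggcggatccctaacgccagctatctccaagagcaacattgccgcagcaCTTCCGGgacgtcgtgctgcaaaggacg

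Each of the other 5 motifs was found in fewer promoters of lower members than the ETS-type motif. The E-box CACGTG, read by MYC among others, was in 4.11% of promoters of lower members, 5.00% of higher members, 10.8% of the other listed genes and 6.49% of all promoters. The palindrome bound by NRF1 (GCGCA followed by TGCGC) was in 4.11%, 5.00%, 1.54% and 1.13% in the same order, which is 3 and 1 promoters of members. TGACNNNGC, the core of the antioxidant response element, was in 13.7%, 5.00%, 11.8% and 11.0%. TATAAA was in 4.11% of lower members and 0 of 20 higher members, against 7.06% and 11.1%. The interferon-stimulated response element, searched as GAAA, 2 free bases and GAAA, was in 4.11%, 5.00%, 4.49% and 3.07%. The single match among higher members was in PARP12, an interferon-induced ADP-ribosyltransferase, in capitals here in the 120 bases before its start.
PARP12 promoter (chr7:140062952-140063071, minus strand): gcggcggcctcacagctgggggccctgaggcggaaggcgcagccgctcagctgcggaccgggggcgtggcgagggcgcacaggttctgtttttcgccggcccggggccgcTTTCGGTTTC

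Members annotated to the nucleolus, where ribosomal RNA is made and assembled, were all lower: 26 of 26, of which 19 fell (73.1%). Over all listed genes 64.8% were lower and 52.8% fell, and these differences were not tested. Among the other listed genes with this annotation 72 of 85 were lower and 60 fell (70.6%), so the members' share was close to theirs. ACIN1, DHX15 and IPO5 of this group changed sign on a scale over the listed genes. The nucleolar helicase DDX21 (ENSG00000165732, chromosome 10, 68956128 to 68985073), which works in transcription and processing of ribosomal RNA, was not annotated there in the table and is given beside them. Its normalised counts were 14371, 14075 and 14422 in vehicle and 11448, 11268 and 11492 in extract libraries. Replicates of DDX21 differed by little within each group, and the log2 fold change was -0.33 (SE 0.04, edgeR adjusted p = 0.00263). GTPBP4, a GTPase of the large ribosomal subunit's assembly, was at 3322, 3631 and 3527 in vehicle and 2709, 2844 and 2676 in extract libraries, with log2 fold change -0.35 and SE 0.05 (edgeR adjusted p = 0.00418).

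The calls of DDX21 and GTPBP4 were kept in 15 of 16 other settings and lost with size factors by DESeq2 from listed genes. RRP12, a factor of pre-ribosome export, went from 2338 ± 188 to 1735 ± 206 normalised counts (± SD of 3 libraries), with log2 fold change -0.43 (edgeR adjusted p = 0.0176). CCDC86, a nucleolar protein, was at -0.48, and NIFK, a partner of the proliferation antigen Ki-67, at -0.37. GAR1, listed without the nucleolar annotation, is a subunit of the particles that turn uridine into pseudouridine in ribosomal RNA. It fell by 0.39 on the log2 scale, from 1029, 837 and 911 in vehicle to 754, 679 and 683 in extract libraries. Its vehicle replicate 2 lay nearest to the extract libraries. NIP7 at -0.29, PNO1 at -0.31, RSL1D1 at -0.26, MAK16 at -0.24, KRI1 at -0.28, NOC3L at -0.23 and PUM3 at -0.20, other factors of ribosome assembly, fell too. GRWD1 at -0.30, POLR1G at -0.31 and TSR1 at -0.21 did not pass. The 19 calls fell to 5 on the scale of the TPM values, to 3, 1 and 0 with sums, TMM and size factors by DESeq2 from listed genes, and to 3 and 4 when vehicle replicate 2 or extract replicate 2 was dropped. With vehicle replicate 3 dropped 4 members of the group were called lower, of which TBCA was not among the 19.

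Splicing regulators moved both ways. Of 9 listed members among SR proteins and other regulators, 3 fell (33.3%, beside 52.8% of all listed genes), 2 rose (22.2%, beside 28.9%) and 4 did not pass. RBMS2, which binds single-stranded nucleic acid, was at 4014, 4430.0 and 4429 in vehicle and 3479, 3449 and 3125 in extract libraries, with log2 fold change -0.36 and SE 0.06 (edgeR adjusted p = 0.00722). By TPM its groups overlapped, with extract replicate 3 at 57.7 above vehicle replicate 1 at 53.8. PNN, a nuclear speckle protein, went from 2868 ± 39.8 to 2483 ± 37.4 normalised counts (± SD of 3 libraries), and ACIN1, a subunit of the ASAP complex that binds spliced mRNA, was at -0.17. MBNL3, a muscleblind regulator of alternative exons, rose from 732 ± 32.5 to 875 ± 21.3 (± SD of 3 libraries), with log2 fold change 0.26 (edgeR adjusted p = 0.0249), and RBM12 was at 0.23. The SR proteins SRSF1 at -0.12 and SRSF7 at -0.27, RBM25 at -0.17 and the speckle scaffold SRRM2 at 0.15 did not pass (edgeR adjusted p from 0.0582 to 0.129). ACIN1, RBM25 and SRSF1 changed sign on a scale over the listed genes. The 3 lower calls fell to 1 on the scale of the TPM values or with sums and to 0 with TMM or with size factors by DESeq2 from listed genes. With vehicle replicate 2, vehicle replicate 3 or extract replicate 2 dropped there were 0 higher and 0, 1 and 1 lower calls.

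Of 40 hnRNPs and related nuclear RNA binders 2 were listed, and neither passed: TARDBP (TDP-43) at -0.16 and SYNCRIP (hnRNP Q) at -0.14, with edgeR adjusted p = 0.0536 and 0.0606. With size factors by DESeq2 from listed genes both turned higher, at 0.02 and 0.04. The scaffold attachment factors, which bind RNA and the nuclear matrix, were listed in full, 3 of 3 and all lower, though the sign of SLTM turned on a scale over the listed genes. SAFB2 was at 1747, 1936 and 2098 in vehicle and 1404, 1422 and 1533 in extract libraries, with log2 fold change -0.41 and SE 0.07 (edgeR adjusted p = 0.00889). SAFB went from 4999.6 ± 412 to 3981 ± 154 (± SD of 3 libraries), with log2 fold change -0.33. SLTM at -0.15 did not pass. SAFB2 (chromosome 19, 5586999 to 5624046) and SAFB (5623035 to 5668478) overlap at their ends and are close paralogs. Whether the counting used strand is not given in the sources used here, so part of their reads may not be told apart.

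**Figure D4:**
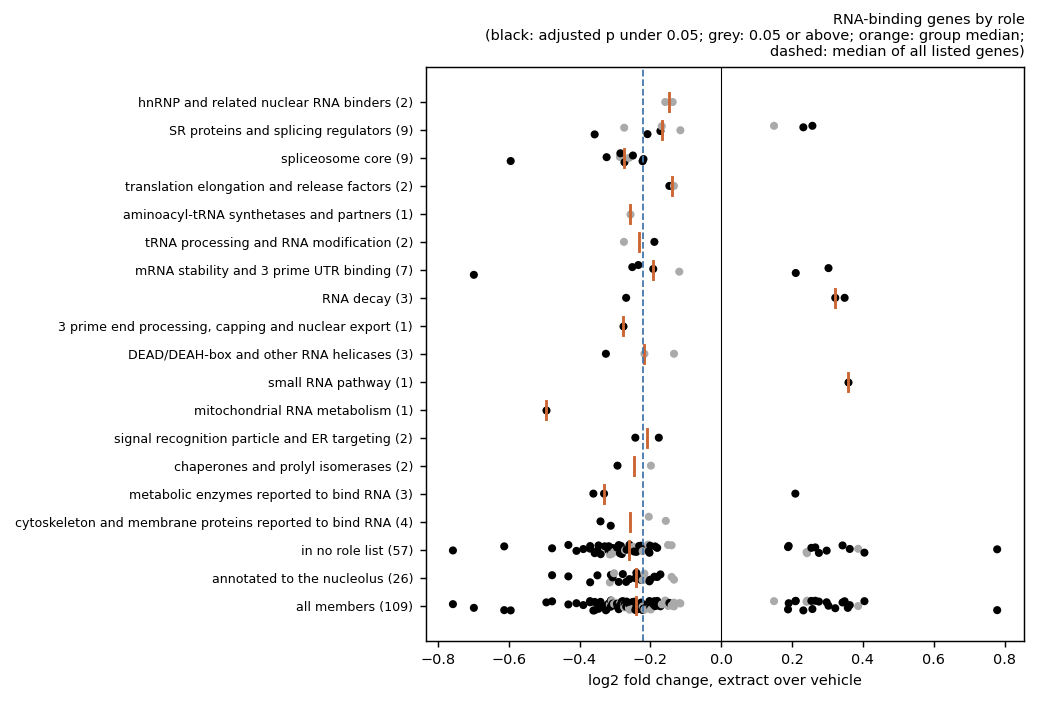
Log2 fold change of the members of each role (horizontal axis; a gene may stand in more than 1 role), with the group median in orange and the number of members in brackets. The dashed line is the median of all listed genes, -0.22; spliceosome and nucleolar members lie left of 0, while regulators of splicing, mRNA stability and decay lie on both sides.

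Proteins that set the stability and translation of mRNAs also moved both ways. Of 7 members of this list 4 fell (57.1%, beside 52.8% of all listed genes) and 2 rose (28.6%, beside 28.9%). SERBP1 at -0.12, whose sign also turned on a scale over the listed genes, did not pass. Besides SAMD4A, the lower ones were LARP4, which binds poly(A) and protects mRNAs, CPEB4, which binds a polyadenylation element, and CNBP, a zinc finger protein of translation. LARP4 was at 2674, 2809 and 2829 in vehicle and 2329, 2317 and 2340.1 in extract libraries, with log2 fold change -0.25 and SE 0.04 (edgeR adjusted p = 0.00848). The extract libraries of LARP4 were nearly equal by counts. By TPM they were at 49.6, 44.2 and 45.2, and extract replicate 1 lay above vehicle replicate 1, at 46.7. CNBP was at -0.19 and CPEB4 at -0.23.

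PABPC1, the cytoplasmic poly(A)-binding protein, was higher, at 19018, 18568 and 17929 normalised counts in vehicle and 20335, 22121 and 21772 in extract libraries. The groups did not overlap, and the log2 fold change was 0.21 (SE 0.05, edgeR adjusted p = 0.0271). PDCD4, an inhibitor of the helicase eIF4A in translation initiation, was at 1198, 1022 and 986 in vehicle and 1259, 1408 and 1280.2 in extract libraries. Vehicle replicate 1 of PDCD4 lay just below the lowest extract library, and the log2 fold change was 0.30 (SE 0.08, edgeR adjusted p = 0.0432). Both calls were kept on the 4 other scales, which raise all log2 fold changes and so add no support. Both were lost with the replicate number as a block. They were also lost on dropping vehicle replicate 2, vehicle replicate 3, extract replicate 2 or extract replicate 3. The 4 lower calls fell to 1 on each of the 4 other scales and to 1, 2 and 1 when vehicle replicate 2, vehicle replicate 3 or extract replicate 2 was dropped.

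Of 3 members in the RNA decay list 2 rose (66.7%, beside 28.9% of all listed genes) and 1 fell (33.3%, beside 52.8%). The 1 member of the small RNA list rose. HELZ2 (ENSG00000130589, chromosome 20, 63558086 to 63574239), a helicase that coactivates nuclear receptors, was at 2469, 2322 and 2301 in vehicle and 3023, 3172 and 2829.9 in extract libraries. All extract libraries were above all vehicle libraries, with log2 fold change 0.35 and SE 0.05 (edgeR adjusted p = 0.00604). HELZ2 was the only member called higher in each of the 16 other settings, where its highest adjusted p lay just under 0.05. Of these, the 4 other scales raise all log2 fold changes and so add no support for a higher call. Nor do the filters and the adjustment over the listed genes alone, which could lose no call. RNASET2, a lysosomal ribonuclease, went from 421 ± 37.6 to 525 ± 27.2 normalised counts (± SD of 3 libraries), with log2 fold change 0.32 (edgeR adjusted p = 0.0459). TNRC6B, a partner of Argonaute in silencing by microRNAs, went from 429 ± 37.2 to 550.5 ± 20.4 (± SD of 3 libraries), with log2 fold change 0.36 (edgeR adjusted p = 0.0247). UPF3B, a factor of nonsense-mediated decay, fell by 0.27 on the log2 scale, from 596 ± 7.87 to 495 ± 16.4 (± SD of 3 libraries). With the listed genes that are not members, 4 of 8 in the decay list rose and 4 fell, and 4 of 4 in the small RNA list rose.

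Members of the translation, tRNA and targeting machinery were lower by little. ETF1, the factor that ends translation at stop codons, fell from 7161 ± 101 to 6470.3 ± 102 normalised counts (± SD of 3 libraries), with log2 fold change -0.15 (edgeR adjusted p = 0.0422). It turned to 0.01 with TMM and 0.03 with size factors by DESeq2 from listed genes. BTF3, a subunit of the nascent chain complex, at -0.13, and FARSA, a subunit of phenylalanyl-tRNA synthetase, at -0.26 did not pass, and the sign of BTF3 turned on a scale over the listed genes. With the genes that are not members, 5 of 6 listed translation factors fell (83.3%, beside 52.8% of all listed genes, a difference that was not tested). NSUN2, which methylates cytosines in tRNA, fell by 0.19 on the log2 scale, and PUS7L, a pseudouridine synthase, was at -0.27 with an edgeR adjusted p of 0.0544. Of the 6 proteins of the signal recognition particle, which brings ribosomes to the endoplasmic reticulum, SRP19 at -0.24 and SRP72 at -0.18 were listed and fell. SARNP, of the mRNA export machinery, was at 1862, 1865 and 1773 in vehicle and 1546, 1543 and 1452 in extract libraries, with log2 fold change -0.28 and SE 0.05 (edgeR adjusted p = 0.00982). The helicases DHX33 at -0.22 and DHX15 at -0.13 did not pass, and DHX15 turned to 0.02 with TMM over the listed genes.

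Proteins with another main function that were found bound to RNA made up a further share. Of 4 cytoskeletal and membrane members, LGALS1 (galectin-1) and CSRP1, a LIM domain protein of actin bundles, fell, and ACTN4 at -0.20 and YWHAG at -0.16, whose sign turned on a scale over the listed genes, did not pass. LGALS1 was at 5232, 5631 and 5380.1 in vehicle and 4644, 4381 and 4064 in extract libraries, with log2 fold change -0.31 and SE 0.05 (edgeR adjusted p = 0.0101). CSRP1 went from 5074 ± 198 to 4007 ± 500.3 normalised counts (± SD of 3 libraries), with more spread among the extract libraries than among the vehicle libraries. FASN, the fatty acid synthase, was at -0.36 (SE 0.08, edgeR adjusted p = 0.027), and NME1, a nucleoside diphosphate kinase, at -0.33. NME1 lies beside its near copy NME2, with which reads could be shared, and NME2 was also lower. NQO1, the quinone reductase induced by NRF2, was at 4951, 4913 and 4926 in vehicle and 5928, 5560.2 and 5609.6 in extract libraries, with log2 fold change 0.21 and SE 0.04 (edgeR adjusted p = 0.0154). The cochaperone FKBP4 was at -0.29 and passed, while the prolyl isomerase PPIA, the member with the highest level (3780 TPM in vehicle), was at -0.20 and did not (edgeR adjusted p = 0.0783).

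Other members that rose had varied functions. RBM43 had the highest log2 fold change, 0.78 (SE 0.17, edgeR adjusted p = 0.0248), on only 94.7, 81.0 and 60.3 normalised counts in vehicle and 127, 151 and 125 in extract libraries. RBM43, like TNRC6B, stood under 5 TPM in both groups and was named after its values were seen. ALDH6A1, a mitochondrial enzyme of valine breakdown, was at 359, 354 and 333 in vehicle and 472, 471 and 441 in extract libraries, with log2 fold change 0.40 (edgeR adjusted p = 0.0125). DZIP3, an RNA-binding ubiquitin ligase, was at 0.36. PARP12 was at 520.4, 608 and 509 in vehicle and 692, 687 and 703 in extract libraries, with log2 fold change 0.34 (edgeR adjusted p = 0.0259). The extract libraries of PARP12 were close together, and vehicle replicate 2 was the highest of its group. HMGN2, a nucleosome-binding protein, was at 8085, 7695 and 7015 in vehicle and 9988, 9353 and 8675 in extract libraries, with log2 fold change 0.30 (edgeR adjusted p = 0.023). RCAN3, a regulator of calcineurin, was at 0.28, MARF1, a ribonuclease of the oocyte, at 0.27, KHNYN, a cofactor of the antiviral protein ZAP, at 0.19, and PSIP1 at 0.19. Each of the 18 members called higher was also called on the 4 other scales, which raise all log2 fold changes and so add no support.

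The 57 members in none of the role lists were of mixed kinds, 44 lower with 35 falling (61.4%) and 13 higher with 10 rising (17.5%). Over all listed genes 52.8% fell and 28.9% rose. LRRC59 at -0.35 and MANF at -0.32, proteins of the endoplasmic reticulum, and FAM98A at -0.32, of the tRNA ligase complex, were among those that fell. PPRC1, a coactivator related to PGC-1, was at -0.34, CCDC9B at -0.36, KHDC4 at -0.29 and NUFIP1, a factor in the assembly of small nucleolar ribonucleoproteins, at -0.31. AKAP1, which anchors protein kinase A and mRNAs at mitochondria, was at -0.27, NAA15, the ribosome-bound subunit of an acetyltransferase, at -0.22, and EDF1, a sensor of collided ribosomes, at -0.23. DUSP14 at -0.28, GLRX3 at -0.20, DNTTIP2 at -0.20, HDGF at -0.19 and NOL7 at -0.18 fell as well. FAU at -0.29, TMSB4X at -0.28 and the pseudogene ENSG00000237550 at -0.25 also fell, and all have near-identical copies in the genome with which reads could be shared. NOSIP at -0.27, SAP18 at -0.25, TBCA at -0.22 and IPO5 at -0.14 did not pass. Of the higher members of this kind, HBP1, a transcriptional repressor, rose at 0.25, while TARBP1 at 0.39, GRN at 0.24 and the readthrough gene HNRNPUL2-BSCL2 at 0.24 did not pass. By normalised counts, the vehicle and extract libraries overlapped in FARSA and HNRNPUL2-BSCL2 alone among members. By TPM other members overlapped as well. AKAP1 was at 28.4, 33.1 and 30.6 TPM in vehicle and 33.6, 29.6 and 27.9 TPM in extract libraries.

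Features that the rule did not use are given as a description, with no test. The median gene length in the deposited table was 4726 bases for higher and 2923 bases for lower members, and the median vehicle level was 29.2 and 103.7 TPM. The median over all listed genes was 2998 bases and 53.9 TPM. By the deposited domain annotation, 18 members had an RNA recognition motif, of which 9 fell and 3 rose (16.7%). The Sm fold was in 5, of which 3 fell (60.0%), and a helicase domain in 3, of which 1 fell (33.3%). Beside these, 52.8% of all listed genes fell and 28.9% rose, and the differences were not tested. Of 3 members with CCCH zinc fingers, PARP12 and MBNL3 rose and PRR3 at -0.31 did not pass. The 77 members with none of 6 searched RNA-binding domains had 46 lower calls (59.7%), beside 52.8% of all listed genes. The 32 members with such a domain had 16 lower calls, a smaller share than that of the table. Of the RNA-binding genes that the rule left out, 82 of 110 were called lower (74.5%), and of the listed genes without the annotation 436 of 880 (49.5%); these differences were not tested.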

How the data were processed

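The authors deposited 1 table of 1099 genes with estimated counts and TPM for 6 libraries, a gene length, and their own fold change as a ratio, log2 fold change, p-value and adjusted p-value, per the file headers. DESeq2 made that comparison, per the name of the deposited table. Reads were placed on GRCh38.p13 according to the submitters' processing notes. The sources used here do not name an aligner, counter or annotation. Library names matched columns to samples. The authors' log2 fold changes put vehicle over extract, and their sign was turned. Deposited p-values follow Benjamini-Hochberg adjustment over 11289 genes, of which the table holds the top ranks.

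Estimated counts were rounded and scaled by the size factors that the deposited fold changes imply, from 0.920 to 1.23 (median absolute log2 difference from the deposited values 6.11e-05). edgeR 4.0.16 (quasi-likelihood, R 4.3.3, limma 3.58.1) tested extract against vehicle over all listed genes, with adjustment over 11289 genes and a threshold of 0.05; its low-count filter removed no gene. SE is the log2 fold change over the square root of F. The script was tested on simulated data. Alternatives were 4 other scales, DESeq2 1.42.0, limma-voom, filters, adjustment over the listed genes, a replicate block and leaving out each library. The spread was estimated from selected genes, so p-values may be too small.

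Members and the 16 role lists (with older symbols) were chosen with earlier results of these data known. Named genes, leaving out those without a standard name, were the 10 highest and 14 lowest called members without overlap of the groups and at least 5 TPM in either group, and the 3 smallest p-values per list. Others named, among them Sm ring, nucleolar, SAFB and domain groups, were chosen after their values were seen. Coordinates are from GENCODE 29 (GRCh38), which matched all 109 members.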

Additional observations from a re-analysis of the deposited data

How the results depend on the processing

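The scale of the libraries decided most lower calls, since the other scales raise the median of all listed genes by 0.08 (TPM scale), 0.14 (sums), 0.15 (TMM) and 0.17 (DESeq2 size factors). The scales over the listed genes use genes that the authors selected on this comparison, of which 64.8% were lower. They take part of that shift out by construction, so fewer lower calls on them cannot be read as a result about the members. On these scales, in this order, 24, 11, 6 and 4 members were called lower against 62, the median of members was -0.16, -0.10, -0.0848 and -0.0650 against -0.24, and 11, 5, 4 and 3 members in a role list were called lower against 27. The share of lower calls among members went from 77.5% to 53.3%, 33.3%, 21.4% and 15.4%, and over all listed genes from 64.6% to 36.6%, 24.6%, 18.4% and 18.2%. With DESeq2 41, and with adjustment over the listed genes alone 43, role list members were called lower. Signs turned for 6 named genes. By DESeq2 size factors these were TARDBP (0.0157), SYNCRIP (0.0371), ETF1 (0.0273), BTF3 (0.0403), DHX15 (0.0405) and YWHAG (0.0166). By TMM they were SYNCRIP (0.0174), ETF1 (0.00786), BTF3 (0.0208) and DHX15 (0.0209), and by sums BTF3 (0.00240) and DHX15 (0.00236).

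Leaving out each library in turn gave 2 to 17 members called higher and 12 to 69 called lower, and in role lists 1 to 8 higher and 6 to 31 lower; fewer libraries also lower the power. The fewest lower calls among members came without vehicle replicate 2. With the replicate number as a block, 2 members were called higher and 25 lower (role lists 1 and 11). The numbers share no known batch: same-numbered libraries deviated with correlations of -0.23 to -0.01, and 0 of 6 libraries correlated best with their own number. limma-voom called 18 higher and 66 lower, DESeq2 21 and 85, and both filters 18 and 62. Of 800 values of 50 named genes under other settings, 561 kept side and direction, 202 lost and 25 gained the call, and 12 turned. The filters and the adjustment over the listed genes alone could lose no call. The cause of these losses was not tested. Estimated counts of part of each library give no sequencing depth, so no counting limit per gene is given.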

Other observations

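The deposited TPM and estimated counts did not move together in every member. On the same scale, the log2 ratio of mean TPM differed from the log2 fold change of counts by more than 0.2 in 4 of 109 members (3.67%) and in 30 of 1099 listed genes (2.73%), with medians of 0.03 and 0.02. SNRPD3 was at -0.55 by TPM and -0.18 by counts. CCDC9B was at -0.48 by TPM and -0.27 by counts. SAMD4A went the other way, at -0.37 by TPM and -0.62 by counts, as did ALDH6A1, at 0.26 by TPM and 0.49 by counts. TPM divides by a transcript length that can differ between libraries; whether transcript use differed was not tested.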
